A study of Sus scrofa with 6 samples.

Results

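The miR-17-92 cluster and its copy on the X chromosome encode microRNAs (miRNAs), short RNAs that lower the output of mRNAs they pair with. The 7 rows described here are the miR-17, miR-18, miR-19 and miR-20 products of these clusters: ssc-miR-17-5p, ssc-miR-17-3p, ssc-miR-18a, ssc-miR-19a, ssc-miR-19b, ssc-miR-20a and ssc-miR-20b. They were picked by name, without the miR-92 and miR-363 products, and all 7 were found among the 898 miRNAs of the table. Small RNA was sequenced from skin of Xiang pigs, a small Chinese breed, with 3 libraries from white skin (S02, S06 and S07) and 3 from black skin (S03, S04 and S05). All 6 skin samples had been wiped with alcohol, freed of hair and kept in the preservative RNAwait at low temperature. The labels give no age, sex, body site, animal or batch, and leave unsaid whether each library is a different pig. The p-values therefore reflect no more than the scatter among these 6 samples, which may be technical. The study looked for miRNAs that affect melanin.

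In mammals the cluster is transcribed as a single precursor RNA from which several hairpins are cut, and each hairpin can give a mature miRNA from either arm. It is best known from dividing cells, where MYC and E2F factors drive its transcription and its products restrain cell cycle inhibitors and the pro-apoptotic BIM. miR-17-5p, miR-20a and miR-20b carry the same seed, the stretch near the 5′ end that selects targets. miR-18a has a closely related seed, and miR-19a and miR-19b share a different one.

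The hairpins lie in a pair of compact arrays. In Sscrofa11.1 (RefSeq gene table), 6 precursors span 782 bases of chromosome 11. They are MIR17 (60734656 to 60734732), MIR18A (60734791 to 60734882), MIR19A (60734939 to 60735020), MIR20A (60735109 to 60735179), MIR19B-1 (60735238 to 60735317) and MIR92A-1 (60735358 to 60735437). On chromosome X another 6 span 917 bases, among them MIR363-1 (110113552 to 110113631), MIR92A-2 (110113717 to 110113796), MIR19B-2 (110113855 to 110113934) and MIR20B-1 (110113980 to 110114059). MIR18B (110114224 to 110114306) and MIR106A (110114388 to 110114468) also lie there, but miR-18b and miR-106a had no row. None of the 12 lies inside another gene of that table. The nearest listed genes to the right are GPC5, 56267 bases from MIR17, and CCDC160, 46201 bases from MIR363-1. ssc-miR-19b can come from either array, since it has a hairpin in both, while ssc-miR-20b has its hairpin on X and the other members theirs on chromosome 11. Members of near-identical sequence can exchange reads, so the split between ssc-miR-20a, ssc-miR-20b and ssc-miR-17-5p, and between ssc-miR-19a and ssc-miR-19b, is uncertain. No member had values equal to those of another row.

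Values are RPM, reads scaled to 1000000 per library over all listed miRNAs, and they convert back to whole reads (6454685 to 10165949 per library). One read was worth 0.0984 to 0.155 RPM. An RPM value is a share of the library, and in bulk skin fewer cells of a type and less RNA per cell cannot be told apart. The skin label was checked against the epithelial miRNA ssc-miR-205, at 19830 ± 4277 RPM in the white and 14237 ± 2596 RPM in the black libraries (SD, n = 3). Of 10 epithelial names looked for, 5 had a row, and 0 of 5 passed the test between the groups. Only 1 of the 5 differences, black minus white, was above 0, with a median of -0.31. Their summed level was 23475 to 34650 RPM in white and 18739 to 25754 RPM in black skin. Of the melanocyte markers only miR-204 was analysed here.

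The 7 members together made up 0.118% of the reads on average, and nearly all of that came from a pair of members with the same seed. ssc-miR-20a and ssc-miR-17-5p held 95.9 ± 0.561% of the members' reads in the white and 93.4 ± 1.40% in the black libraries (SD, n = 3). The sum of the 7 was 1218, 1004 and 1240 RPM in S02, S06 and S07, against 1117, 945 and 1542 RPM in S03, S04 and S05, with overlap between the groups. By mean level over all 6 libraries, ssc-miR-20a ranked 65 and ssc-miR-17-5p 87 among the 898 miRNAs. ssc-miR-19b ranked 173, ssc-miR-18a 235, ssc-miR-20b 300, ssc-miR-19a 324 and ssc-miR-17-3p 400.

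This order held in 5 of 6 libraries. ssc-miR-20a exceeded ssc-miR-17-5p by 1.82 to 2.44 times within a library, and ssc-miR-17-5p exceeded ssc-miR-19b by 6.24 to 14.1 times. ssc-miR-19b stood 2.72 to 4.32 times above ssc-miR-18a, which in turn stood 1.99 to 4.55 times above ssc-miR-20b. The lower end of the order was less settled. ssc-miR-20b was above ssc-miR-19a in 5 of 6 libraries, and in S04 it was the scarcest of the 7. ssc-miR-19a was above ssc-miR-17-3p in 6 of 6 libraries, but by only 1.05 times in S04, at 21 against 20 reads. Products of the array on chromosome 11 had mean levels from 753 RPM to 1.82 RPM, and values of different miRNAs also carry differences in how well each is captured in a library.

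**Figure D1:**
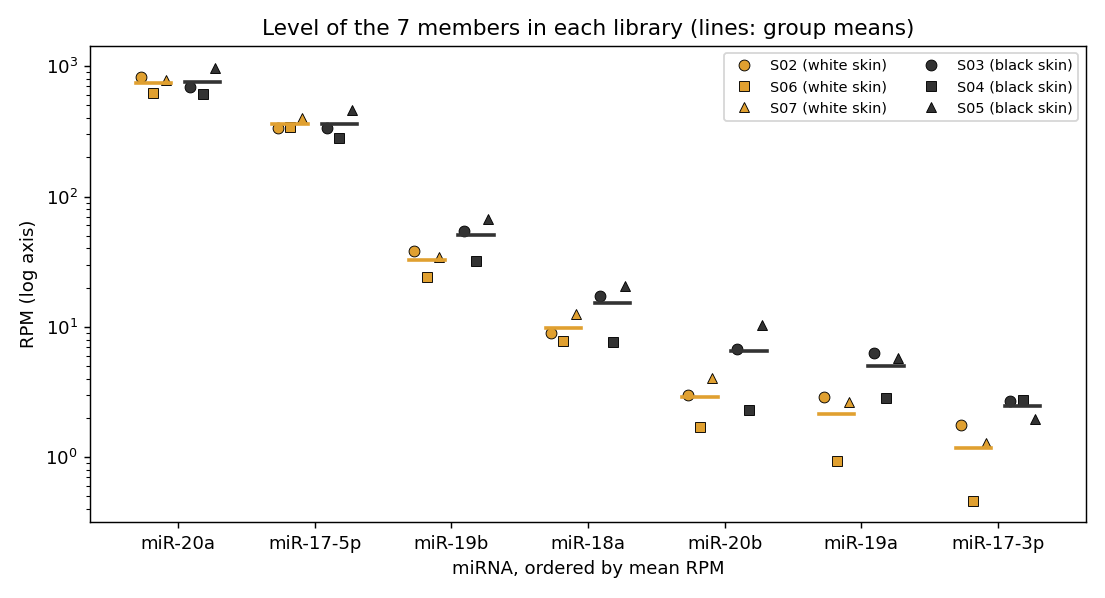
RPM on a log axis for the 7 members, ordered by mean level, with 1 point per library (orange, white skin; dark, black skin) and a line at each group mean. ssc-miR-20a and ssc-miR-17-5p sit between 280 and 976 RPM with the groups intermixed. For ssc-miR-19b, ssc-miR-18a, ssc-miR-20b and ssc-miR-19a the black libraries S03 and S05 lie above all 3 white ones and S04 does not.

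Black and white skin were then compared across all miRNAs with limma on log2(RPM + 1), and p-values were adjusted over the 454 that passed the filter on low counts (Benjamini-Hochberg). All 7 members were among those tested. None of them passed the threshold of 0.05, where 7.05% of all tested miRNAs did (32 of 454). At an unadjusted p under 0.05 there were 2 members, ssc-miR-19a and ssc-miR-17-3p, where 25.6% of all tested miRNAs lay below it. On the recovered reads edgeR, DESeq2 and limma-voom also called 0 of the 7, while they called 6.61%, 11.5% and 6.83% of all tested miRNAs. These tools placed 1, 1 and 2 members at an unadjusted p under 0.05, but the share of all tested miRNAs below it was taken for the main fit alone. The median difference of the members, black minus white, was 0.60 against 0.00218 over all tested miRNAs, and 6 of 7 differences were above 0, where 50.0% of all were. Among these 6, ssc-miR-20a lay at 0.02 and changed sign in 5 of 16 alternatives. The members are not independent of each other, since most share a precursor RNA. The intervals below bound what 3 libraries against 3 could show, and those of the scarce members reach past a 2-fold difference.

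The abundant pair, which carries the seed that represses cell cycle inhibitors, had nearly equal means. ssc-miR-20a measured 825, 625 and 782 RPM in S02, S06 and S07 (white) and 693, 617 and 976 RPM in S03, S04 and S05 (black). White skin averaged 744 ± 105 and black skin 762 ± 189 RPM (SD, n = 3). The highest and the lowest library were both from black skin. The difference was 0.02 on the log2(RPM + 1) scale (standard error 0.22, 95% confidence interval -0.48 to 0.52, limma adjusted p = 0.971), and its sign turned with RLE factors, when predicted miRNAs were left out before scaling and with DESeq2.

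ssc-miR-17-5p, the namesake of the cluster, measured 338, 343 and 403 RPM in S02, S06 and S07, against 337, 280 and 460 RPM in S03, S04 and S05. Again S05 was the highest and S04 the lowest of all 6 libraries, so that the black libraries enclosed the white ones. The means were 361 ± 36.1 RPM for white and 359 ± 92.1 RPM for black libraries (SD, n = 3; difference -0.03, standard error 0.23, 95% confidence interval -0.54 to 0.48, limma adjusted p = 0.933). In this fit both intervals ended short of a 1.5-fold difference, at 0.715 and 1.43 for ssc-miR-20a and at 0.686 and 1.39 for ssc-miR-17-5p. The lower end for ssc-miR-17-5p came close to it, and its difference moved with the setting. It was -0.12 when predicted miRNAs were left out before scaling, -0.23 without S05 and 0.13 without S04.

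The miR-19 pair, which shares its own seed, had higher means in black skin but did not pass the test. ssc-miR-19b measured 38.5, 24.3 and 34.2 RPM in S02, S06 and S07, against 54.0, 31.9 and 67.1 RPM in S03, S04 and S05. Libraries S03 and S05 lay above every white library, and S04 lay among the white ones. The means were 32.3 ± 7.27 and 51.0 ± 17.8 RPM (SD, n = 3; difference 0.60, standard error 0.33, 95% confidence interval -0.15 to 1.35, limma adjusted p = 0.302).

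ssc-miR-19a was about an order of magnitude scarcer, with 2.88, 0.930 and 2.66 RPM in S02, S06 and S07, against 6.33, 2.86 and 5.78 RPM in S03, S04 and S05. The groups overlapped by a small margin, S04 falling just under S02, each with 21 reads. S06 was low on 6 reads, and its exact Poisson interval was 0.341 to 2.02 RPM (95%, counting error only). The means were 2.15 ± 1.07 and 4.99 ± 1.86 RPM (SD, n = 3), a ratio of 2.32. The difference of 0.94 (standard error 0.38, 95% confidence interval 0.08 to 1.80) had the largest size among the members and missed the threshold (limma adjusted p = 0.157, unadjusted p = 0.0355). Of all tested miRNAs 13.2% had a difference of larger size.

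ssc-miR-18a, whose seed is related to that of miR-17, measured 8.90, 7.75 and 12.6 RPM in S02, S06 and S07, against 17.2, 7.64 and 20.7 RPM in S03, S04 and S05. S04 was the lowest of all 6 libraries while S03 and S05 were the highest. The means were 9.75 ± 2.53 and 15.2 ± 6.76 RPM (SD, n = 3; difference 0.51, standard error 0.40, 95% confidence interval -0.39 to 1.41, limma adjusted p = 0.494).

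ssc-miR-20b, the member encoded on X, measured 3.01, 1.70 and 4.03 RPM in S02, S06 and S07, against 6.71, 2.32 and 10.4 RPM in S03, S04 and S05, from 11 to 90 reads. S05 and S03 were again above the white libraries and S04 among them. The means were 2.92 ± 1.17 and 6.48 ± 4.05 RPM (SD, n = 3; difference 0.81, standard error 0.47, 95% confidence interval -0.25 to 1.86, limma adjusted p = 0.321). The spread within black skin was 62.5% of the mean, against 17.2% from counting reads alone.

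ssc-miR-17-3p comes from the opposite arm of the miR-17 hairpin and is the scarcest member. It measured 1.78, 0.465 and 1.28 RPM in S02, S06 and S07, against 2.71, 2.73 and 1.97 RPM in S03, S04 and S05. It was the only member whose groups did not overlap, where 27.3% of all tested miRNAs had no overlap and 13.4% none with black skin higher. Its reads numbered 3 to 13 in white and 17 to 21 in black libraries. The Poisson interval of S02 (0.948 to 3.05 RPM) covered the values of all 3 black libraries. That of S07 (0.681 to 2.19 RPM) covered S05 alone, and that of S06 (0.0958 to 1.36 RPM) ended below all 3. The means were 1.17 ± 0.664 and 2.47 ± 0.435 RPM (SD, n = 3; difference 0.71, standard error 0.30, 95% confidence interval 0.04 to 1.39, limma adjusted p = 0.173, unadjusted p = 0.0397). The log2(RPM + 1) scale understates differences at such levels. With pseudocounts of 10 and 0.1 in place of 1, the difference was 0.16 and 1.16 for ssc-miR-17-3p, 0.30 and 1.24 for ssc-miR-19a, 0.32 and 0.97 for ssc-miR-20b and 0.32 and 0.54 for ssc-miR-18a, and none was called.

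**Figure D2:**
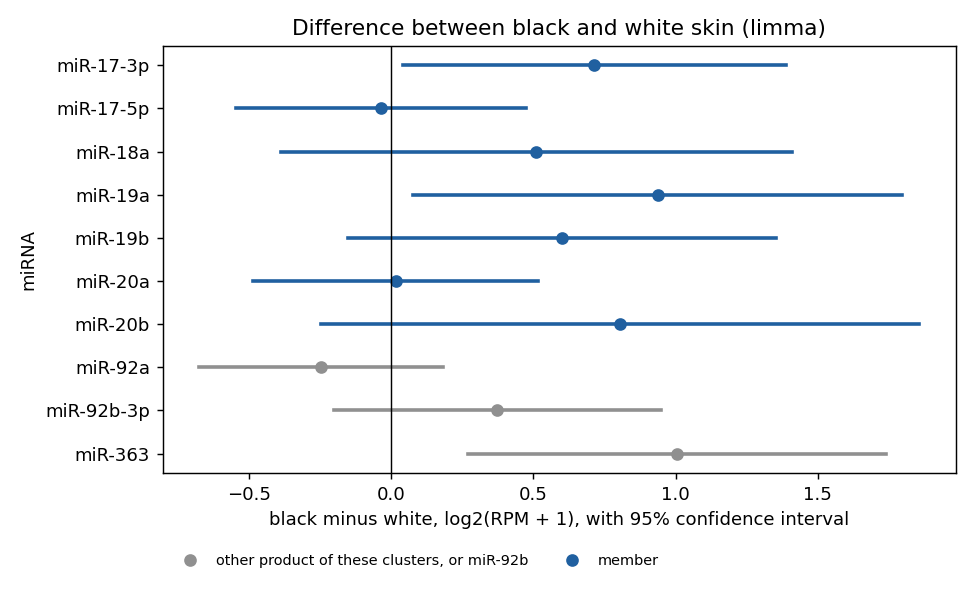
Black minus white on the log2(RPM + 1) scale with 95% confidence intervals (limma) for the 7 members in blue and for ssc-miR-92a, ssc-miR-92b-3p and ssc-miR-363 in grey. ssc-miR-17-5p and ssc-miR-20a lie at 0 within 0.04, the other 5 members between 0.51 and 0.94, and no adjusted p was under 0.05.

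The sizes of these differences depended on single libraries. Without S04, the differences were 0.91 for ssc-miR-18a, 1.31 for ssc-miR-20b, 1.23 for ssc-miR-19a and 0.90 for ssc-miR-19b. In that fit 4 members had an unadjusted limma p under 0.05, but 0 passed after adjustment (smallest limma adjusted p = 0.102). The share of all tested miRNAs under that unadjusted p was not taken there, so the count of 4 cannot be set against it. Without S05, the difference of ssc-miR-18a was 0.25 and that of ssc-miR-20b 0.42. Leaving out the white library S06 gave 0.62 for ssc-miR-19a and 0.45 for ssc-miR-17-3p. The smallest adjusted p of any member with 1 library left out was 0.0890, without S02.

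**Figure D3:**
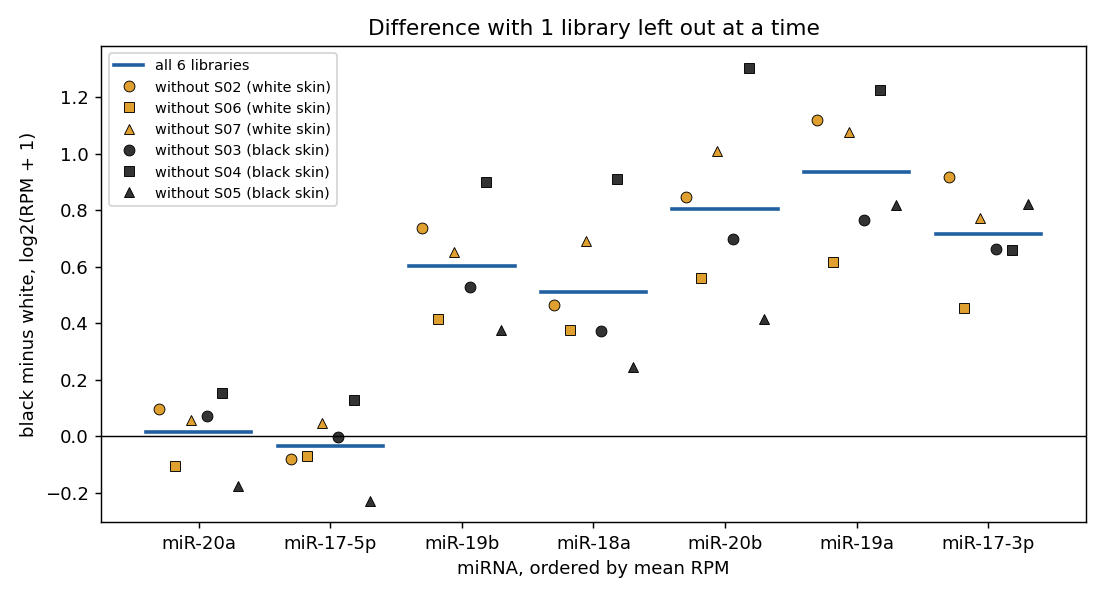
Black minus white on the log2(RPM + 1) scale for each member with all 6 libraries (blue line) and with each library left out (points). For ssc-miR-18a and ssc-miR-20b the values run from 0.25 to 0.91 and from 0.42 to 1.31, while those of ssc-miR-20a and ssc-miR-17-5p lie on both sides of 0.

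Within each library, 7 ratios between members were compared between the groups with a two-sided exact permutation test on log2(RPM + 1). Its smallest p is 0.1 with 3 against 3 libraries, so none could pass 0.05. The added 1 RPM weighs on the scarce members, so each ratio was also taken from the reads with no pseudocount, a setting chosen after seeing the data. The ratio of ssc-miR-20a to ssc-miR-17-5p, which share a seed and a cluster, was 1.03 ± 0.22 in the white and 1.09 ± 0.05 in the black libraries (log2, SD, n = 3; difference 0.05, exact permutation p = 0.8, also with no pseudocount).

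The miR-19 products had higher mean ratios to miR-17-5p in black skin. The log2 ratio of ssc-miR-19a to ssc-miR-17-5p was -6.45, -7.48 and -6.79 in S02, S06 and S07 and -5.53, -6.19 and -6.09 in S03, S04 and S05 (difference 0.97, exact permutation p = 0.1, adjusted over the 7 ratios 0.233). These groups did not overlap, nor did they with no pseudocount (difference 1.33, exact permutation p = 0.1), but they did with a pseudocount of 10 (0.33, exact permutation p = 0.2). The log2 ratio of ssc-miR-19b to ssc-miR-17-5p was -3.100, -3.765 and -3.519 in the white and -2.620, -3.096 and -2.761 in the black libraries (difference 0.64, exact permutation p = 0.1, adjusted 0.233). From the reads the groups of this ratio overlapped, with S02 at -3.133 and S04 at -3.135 (difference 0.65, exact permutation p = 0.2). As a share of the members' reads, the miR-19 pair held 3.40, 2.52 and 2.98% in S02, S06 and S07 and 5.40, 3.68 and 4.72% in S03, S04 and S05.

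On the log2(RPM + 1) scale the other 4 ratios overlapped between the groups (exact permutation p = 0.2 each, adjusted 0.233). ssc-miR-18a to ssc-miR-17-5p differed by 0.54, ssc-miR-19a to ssc-miR-19b by 0.34, and ssc-miR-20b on X to ssc-miR-20a on chromosome 11 by 0.79. The ratio of the miR-17 arms, 5p to 3p, was 7.42 ± 0.48 in the white and 6.68 ± 0.54 in the black libraries (log2, SD, n = 3), a difference of -0.75. Which ratios overlapped depended on the pseudocount. ssc-miR-19a to ssc-miR-19b did not overlap with no pseudocount (0.68) or with 0.1 (0.63), and ssc-miR-18a to ssc-miR-17-5p (0.35) and ssc-miR-20b to ssc-miR-20a (0.31) did not with 10 (exact permutation p = 0.1 each, adjusted 0.233).

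**Figure D4:**
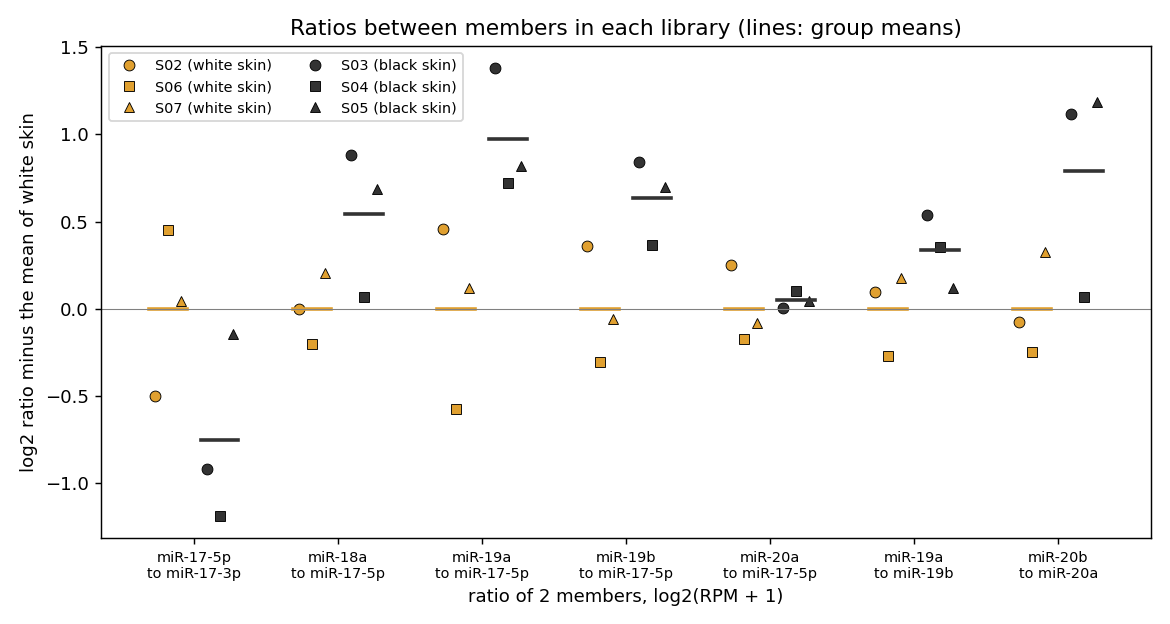
Log2 ratios between members, each minus its mean in white skin, with 1 point per library and a line at each group mean. On this log2(RPM + 1) scale the ratios of ssc-miR-19a and ssc-miR-19b to ssc-miR-17-5p have no overlap between the groups, that of ssc-miR-19b by a margin that is gone with no pseudocount, and that of ssc-miR-20a to ssc-miR-17-5p stays within 0.26 of the white mean in all 6 libraries.

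The closest resemblance across libraries was between ssc-miR-20b and ssc-miR-18a. MIR18B lies on X beside MIR20B-1 and miR-18b had no row, so whether its reads were counted as ssc-miR-18a is unknown. ssc-miR-19b has a hairpin in both arrays. As a description over 6 libraries that include both groups, Pearson's r of log2(RPM + 1) was 0.98 between ssc-miR-20b on X and ssc-miR-18a on chromosome 11, 0.97 between ssc-miR-20b and ssc-miR-19b, and 0.94 between the miR-19 pair. Between ssc-miR-20a and ssc-miR-17-5p it was 0.83. The arms of the miR-17 hairpin did not vary together (r = -0.24), and ssc-miR-17-3p rests on few reads.

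Of 8 related names looked for, 3 had a row: miR-92a and miR-363 of these clusters, and miR-92b, which lies outside them. No row was listed for miR-18b, miR-25, miR-93, miR-106a or miR-106b. With both arms of miR-92b there were 4 rows, of which 3 were tested and 0 passed. Their median difference of 0.37 is the value of ssc-miR-92b-3p. ssc-miR-363, encoded in the same array on X as ssc-miR-20b, measured 39.2, 40.3 and 67.2 RPM in S02, S06 and S07, against 130, 66.4 and 102 RPM in S03, S04 and S05. S04 fell just under S07, and S03 and S05 were above all white libraries. On the log2(RPM + 1) scale its difference of 1.01 (standard error 0.33, limma adjusted p = 0.104) was above that of every member. With edgeR it was 1.03, below ssc-miR-19a (1.20), ssc-miR-20b (1.12) and ssc-miR-17-3p (1.05). ssc-miR-92a, which has a hairpin in both arrays, gave -0.25 (standard error 0.19, limma adjusted p = 0.492), with 568 ± 84.2 RPM in the white and 477 ± 46.1 RPM in the black libraries (SD, n = 3). ssc-miR-92b-3p, from a separate locus on chromosome 4, gave 0.37 (limma adjusted p = 0.415).

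The mean standardized level of the members over the 6 libraries was compared with 235 other tested named miRNAs, cluster relatives included. The 5 most like it were ssc-miR-217 (r = 0.95, at 3.10 to 5.09 RPM), ssc-miR-144 (0.93), ssc-miR-34c (0.92), ssc-miR-29b (0.91) and ssc-miR-142-5p (0.88). Their order is a description with no test. None of them was called between the groups (limma adjusted p from 0.137 for ssc-miR-29b to 0.656 for ssc-miR-217). ssc-miR-144 is made by red cell precursors and measured 2.74, 0.775 and 6.49 RPM in S02, S06 and S07, against 5.55, 3.55 and 21.2 RPM in S03, S04 and S05. ssc-miR-142-5p, a miRNA of blood cells, measured 605, 213 and 661 RPM in white and 762, 475 and 816 RPM in black skin, in the same order.

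In both, S06 was the lowest library and S05 the highest, as for ssc-miR-19b and ssc-miR-20b. Of 6 leukocyte rows 1 was called (ssc-miR-142-3p, higher in black skin), and their summed level was 3024 to 5965 RPM in white and 3725 to 5965 RPM in black skin. Of 3 erythroid rows 0 were called, with sums of 1723 to 4914 and 994 to 4298 RPM. Their differences went both ways, 1.24 for ssc-miR-144, -0.87 for ssc-miR-451 and -1.68 for ssc-miR-486. The endothelial rows were called higher in black skin in 2 of 2 cases (sums 17322 to 23899 and 28989 to 35451 RPM), as was 1 of 4 smooth muscle rows (26728 to 34192 and 64998 to 84502 RPM). Of 7 fibroblast and mesenchymal rows 1 was called lower, and of 5 tested striated muscle rows 0 were called. The melanocyte marker ssc-miR-204 measured 57.7 to 71.1 RPM in white and 88.5 to 135 RPM in black skin and was not called (limma adjusted p = 0.0804). The part of these cell types in the members' levels was not tested.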

How the data were processed

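The table deposited by the authors holds RPM in 6 columns, 1 per library. The unit was taken from the column sums, which are 1000000 each. The submitters' processing notes list Bowtie and Sscrofa11.1 with no role, and the counting tool, miRNA database and any filter of the authors were not given in the sources used here. Dividing by the value of a single read gave whole numbers for 100% of values (tolerance 0.001), which are the recovered reads. Every pair of libraries differed by a chi-square of at least 248.7 per degree of freedom, so all 6 were kept.

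The main test was limma 3.58.1 (R 4.3.3) and its trend option on log2(RPM + 1), as black minus white, on miRNAs kept by filterByExpr of edgeR 4.0.16 (minimum count 10, minimum total 15). The scripts were tested on simulated data. Alternatives used TMM and RLE factors, other filters, pseudocounts of 0.1 and 10 (for ratios also none, added after seeing the data), edgeR, DESeq2 1.42.0 and limma-voom on recovered reads, named miRNAs alone, and each library left out. No replicate block was fitted.

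Members, relatives, ratios and marker lists were chosen with earlier results of these data known. Named were all members and cluster relatives and the 5 other miRNAs most correlated with the members' mean standardized level. No mature sequences were used here.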

Additional observations from a re-analysis of the deposited data

How the results depend on the processing

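The count of members called was 0 under all 16 alternatives. The count over all miRNAs, 32 with all libraries, was 52 with DESeq2 and ran from 7 to 37 with 1 library left out: 37 without S02, 7 without S06, 19 without S07, 8 without S03, 16 without S04 and 7 without S05. When scaled without predicted miRNAs, 242 named miRNAs were tested in place of 454, so both the set and the scaling changed. Their median difference was -0.14 and the calls were 16 higher and 19 lower, against 18 and 14 in the main fit. With edgeR on all 454 the calls were 13 higher and 17 lower. The differences of ssc-miR-17-3p, ssc-miR-18a, ssc-miR-19a, ssc-miR-19b and ssc-miR-20b stayed above 0 in every alternative that tested them, and the filter of 10 RPM in 3 libraries left out ssc-miR-17-3p, ssc-miR-19a and ssc-miR-20b. ssc-miR-17-5p ran from -0.23 to 0.13 with 1 library left out, being above 0 without S07 (0.047) and without S04 (0.13). ssc-miR-20a was -0.00040 with RLE factors, -0.073 with predicted miRNAs left out and -0.0046 with DESeq2, and ran from -0.18 (without S05) to 0.15, with -0.10 without S06. For the ratios, pseudocounts of 10, 0.1 and none (added after seeing the data) gave -0.19, -1.20 and -1.29 for the miR-17 arms, 0.33, 1.28 and 1.33 for ssc-miR-19a to ssc-miR-17-5p, -0.20, 0.63 and 0.68 for ssc-miR-19a to ssc-miR-19b, and 0.31, 0.95 and 0.97 for ssc-miR-20b to ssc-miR-20a. ssc-miR-17-3p, ssc-miR-19a and ssc-miR-20b rest on 3 to 90 reads per library. The spread of ssc-miR-19a was 49.5% of the mean in white and 37.3% in black skin, against 28.9% and 17.1% from counting reads alone. For ssc-miR-20b it was 40.0% and 62.5%, against 23.1% and 17.2% from counting. That of ssc-miR-17-3p was 56.5% and 17.6%, against 40.3% and 22.8% from counting. No paired analysis was possible because white and black libraries carry no common code.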
